A study of Mus musculus with 28 samples.

Results

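Mouse embryonic stem cells that had been given the naive-state medium back after 48 h without it were compared with cells that had been without it for 24 h. The libraries were chosen from the sample titles alone, as the 4 of each of these groups, which makes 8 of the 28 libraries of the series. All are E14 cells, a line of mouse embryonic stem cells derived from blastocysts, grown on gelatin in N2B27, a serum-free basal medium. 2iL is N2B27 with 3 µM CHIR99021, an inhibitor of GSK3, 1 µM PD0325901, an inhibitor of MEK, and the cytokine LIF. The 24 h group was moved from 2iL to plain N2B27 and collected after 24 h. The second group, 48 h + 2iL, spent 48 h in plain N2B27 and then 24 h in 2iL again, and is called re-induced here. It was collected 72 h after the first withdrawal, so the presence of 2iL at collection and the longer time since that withdrawal cannot be told apart. The cells kept in 2iL and those withdrawn for 48 h, 4 libraries each, are given as reference points. The 4 libraries of a group are numbered in the titles as experiments 1 to 4, with 1 library per group in each. The labels name 1 cell line and do not say whether experiments used separate cultures. The p-values thus measure spread between libraries, pooled over all 28 of the series, which may be partly technical.

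In naive embryonic stem cells, inhibition of GSK3 stabilises beta-catenin and relieves repression by TCF7L1, inhibition of MEK blocks the FGF and ERK signal that drives cells towards differentiation, and LIF activates STAT3. Tfcp2l1, Esrrb, Klf2, Klf4, Tbx3 and Nanog are transcription factors of the network that these inputs hold up. On withdrawal the network is taken down and cells enter a formative state, resembling the early epiblast after implantation and marked by Otx2, Pou3f1 and the de novo DNA methyltransferases. The comparison sets cells on the way back to the naive state beside cells on the way out of it.

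Values are CPM, counts divided by a library size that was scaled by the trimmed mean of M values (TMM), given for experiments 1 to 4 in that order, and means are given ± SD (n = 4). Differences are log2 fold changes, 48 h + 2iL minus 24 h unless another pair is named, ± standard error. They come from edgeR's quasi-likelihood test with the experiment as a block, fitted to all 28 libraries of the series. A gene is called higher or lower where its two-sided Benjamini-Hochberg adjusted p over all genes tested was under 0.05.

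The marker genes Tfcp2l1, Otx2 and T separated both groups in every library. Tfcp2l1 (GRCm38, chromosome 1, 118627945 to 118685168) stood at 55.3, 50.9, 74.3 and 85.7 CPM at 24 h and at 371, 404, 342 and 375 CPM in re-induced cells. Every re-induced library was above every 24 h library, and the difference was 2.49 ± 0.25, adjusted p = 1.1e-08. Otx2 (chromosome 14, 48657677 to 48673819), which directs the move to the formative state, stood at 150.1, 154, 223 and 202 CPM at 24 h and at 7.58, 7.15, 8.73 and 6.98 CPM in re-induced cells (-4.60 ± 0.42, adjusted p = 1.23e-09). All re-induced libraries were low and all 24 h libraries high. T (chromosome 17, 8434423 to 8442496), also called Brachyury, a mesoderm factor and a target of WNT signalling, had 0 counts in 3 of the 24 h libraries and 1 count in the other, and stood at 72.3, 51.7, 119 and 66.6 CPM in re-induced cells. Its pooled counts were 695 against 1, a ratio of 531 (95% interval 94.9 to 20980, counting error only), and the mean in 2iL was 19.5 ± 6.54 CPM. For T the re-induced cells also stood above the cells that never left 2iL (2.01 ± 0.53, adjusted p = 0.00779).

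**Figure D1:**
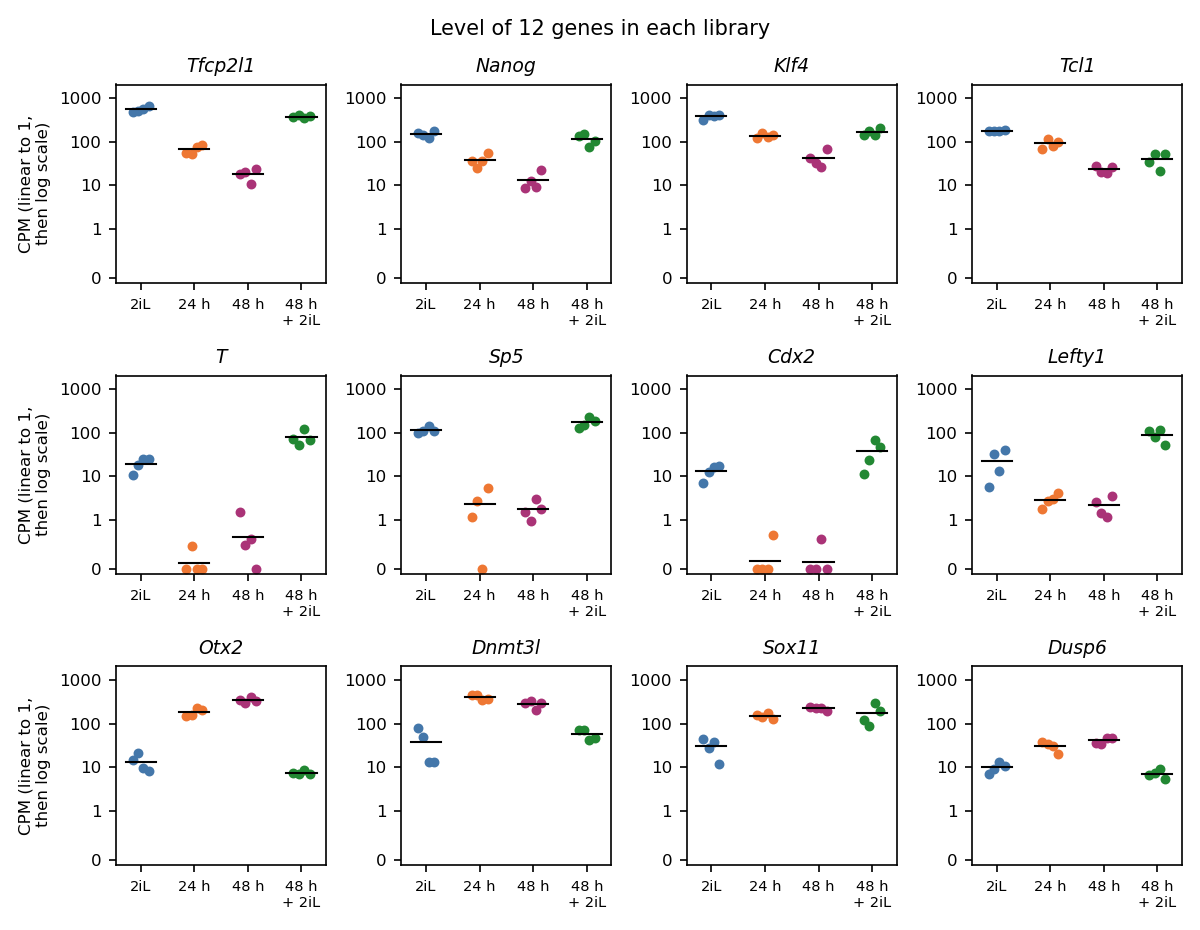
CPM of 12 genes in each of the 4 libraries of the 2iL, 24 h, 48 h and 48 h + 2iL groups, on an axis that is linear up to 1 CPM and logarithmic above; points are libraries, in the order of experiments 1 to 4, and bars are means. Tfcp2l1 and Nanog are high in 2iL and 48 h + 2iL, T, Cdx2 and Lefty1 have their highest means in 48 h + 2iL, and the Sox11 libraries of 24 h and 48 h + 2iL overlap.

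Gene counts ranged from 1554830 to 2309926 per library at 24 h and from 2043207 to 2419846 in re-induced cells, and 13021 to 13410 against 13805 to 14004 genes were detected. Alignments tallied as not unique, which were not counted to genes, made up 54.9% to 58.7% of all tallied entries in the 8 files. This need not be the share of reads. Mitochondrially encoded transcripts were 2.56% ± 0.19 of counts at 24 h and 2.02% ± 0.22 in re-induced cells. Gm42418, which RefSeq lists as a pseudogene of 18S ribosomal RNA, took 20.4%, 18.5%, 18.4% and 19.9% of counts at 24 h and 18.6%, 15.3%, 14.9% and 14.3% in re-induced cells, lower in each of the 4 experiments (-0.37 ± 0.10, adjusted p = 0.00683). The part of both in the results was not tested. On the first principal component of 16 libraries (31.6% of the variance) the re-induced libraries lay between those of 2iL and of 24 h, and on the second (16.6%) they lay above all others, from 25.3 to 47.4, with experiment 3 highest.

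**Figure D2:**
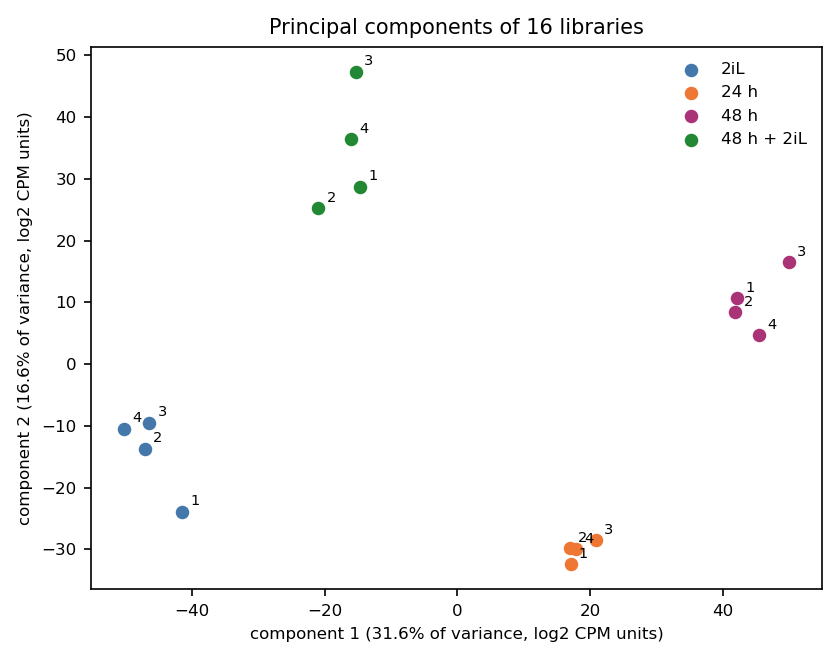
First and second principal components of log2 CPM over 16 libraries, 4 from each of the 2iL, 24 h, 48 h and 48 h + 2iL groups; the number beside a point is the experiment. The 48 h + 2iL libraries lie between 2iL and 24 h on the first component and between 25.3 and 47.4 on the second, where the 24 h libraries are lowest.

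Of 11080 genes tested, 2170 (19.6%) differed between re-induced and 24 h cells: 1135 (10.2%) were higher in re-induced cells and 1035 (9.34%) lower. Scaled by library totals instead of TMM, the split was 1382 higher and 848 lower, and the median difference of all genes moved from 0.01 to 0.08. With DESeq2 the split was 1065 higher and 1094 lower, and with RLE factors, another scaling, 1087 and 1082, so which direction had more genes depended on the setting. In 1978 genes (17.9%) the libraries of both groups did not overlap. The mean in 2iL lay between the means of both groups for 708 of the 1135 higher genes, above both for 281 and below both for 146. For the 1035 lower genes these numbers were 669, 117 and 249. The 2iL mean was nearer to the re-induced mean than to the 24 h mean, on the log2 scale, for 57.3% of the higher and 58.6% of the lower genes. Against 2iL itself, 2074 genes (18.7%) differed at 24 h and 1616 (14.6%) in re-induced cells, 860 (7.76%) of them higher. These comparisons share the 2iL libraries.

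**Figure D3:**
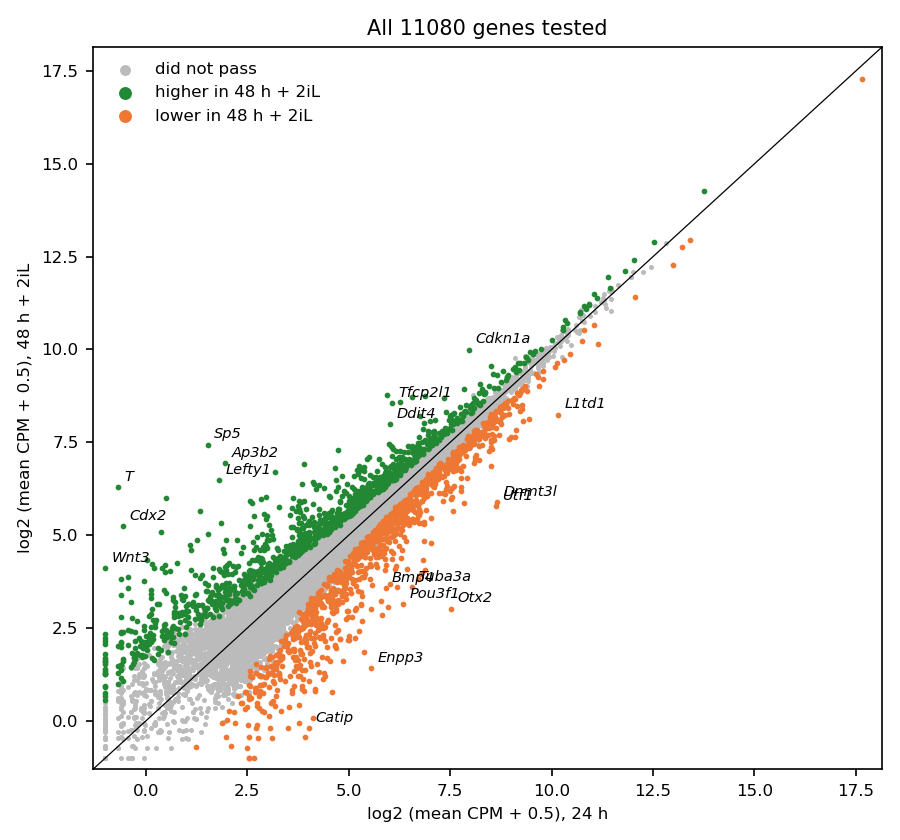
Mean level of each of the 11080 genes tested, as log2 (mean CPM + 0.5), at 24 h (x axis) and in 48 h + 2iL (y axis); green and orange points passed the test, the line marks equal levels. T, Cdx2, Sp5 and Wnt3 lie far above the line, and Otx2, Pou3f1, Enpp3 and Catip far below it.

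The 15 largest differences upward, among called genes with a mean of at least 10 CPM in the higher group and no overlap, were T, Wnt3, Cdx2, Sp5, Nkx1-2, Pdlim4, Cdx1, Srgap1, Greb1, Ap3b2, Lefty1, Plcl2, Frem2, Mobp and Tgfbr3. Some of the 15 had at most 3 counts over the 24 h group, so their order is uncertain. Greb1 moved from 5.16 to 8.11 without the 24 h library of experiment 4. Srgap1 moved from 5.27 to 7.91 without that of experiment 2. T, Wnt3, Cdx2, Sp5, Nkx1-2 and Cdx1 are genes of the primitive streak and the posterior embryo or targets of beta-catenin. Nkx1-2, a homeobox gene of the caudal epiblast, stood at 1.22, 0.471, 1.26 and 0.691 CPM at 24 h and at 43.0, 36.6, 113 and 62.8 CPM in re-induced cells (6.05 ± 0.68, adjusted p = 7.16e-08). Ap3b2, which encodes a subunit of the neuronal AP-3 adaptor complex, stood at 4.86, 2.83, 3.78 and 2.07 and at 83.9, 86.6, 173 and 145 CPM (5.13 ± 0.53, adjusted p = 1.53e-08). In both genes no 24 h library came near a re-induced one. The largest differences downward were Spink1, Catip, Ascl2, Vax2, Otx2, Enpp3, Tgm3, Slc47a1, Sned1, Napsa, Mia, Ryr3, Cdk5r2, Prss50 and Vax2os. Enpp3, an ectonucleotidase gene, stood at 44.4, 50.9, 41.0 and 49.8 CPM at 24 h and at 3.03, 2.52, 0.831 and 2.33 CPM in re-induced cells (-4.42 ± 0.38, adjusted p = 6.29e-10). Spink1 had 92 counts at 24 h and 2 in re-induced cells, a ratio of 60.3 (95% interval 16.2 to 505), or 31.6 without the 24 h library of experiment 4, which held most of its counts. Vax2 and Vax2os overlap on opposite strands, and their reads may not be told apart.

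Naive pluripotency genes did not move as 1 group. All 20 listed were measured, 7 were higher in re-induced cells, 4 were lower and 9 did not pass the test. Their median difference was 0.26, beside 0.01 for all genes. Of all genes tested 10.2% were higher and 9.34% lower, and each list count here and below is to be read beside these shares. The count of 7 became 4 without the 24 h library of experiment 1, without the re-induced library of experiment 2, and with DESeq2.

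Higher were Tfcp2l1, Nanog, Klf2, Gbx2, Esrrb, Dppa3 and Prdm14. Nanog (chromosome 6, 122707489 to 122714633), a core homeobox factor, stood at 35.2, 25.5, 35.3 and 55.3 CPM at 24 h and at 133, 149, 76.1 and 104 CPM in re-induced cells, with no overlap (1.60 ± 0.29, adjusted p = 0.00011). Klf2, a Krüppel-like factor that 2iL sustains through MEK inhibition, stood at 156, 133, 196 and 166 and at 459.5, 458, 374 and 369 CPM (1.32 ± 0.27, adjusted p = 0.000535). Here too the groups were apart, and the re-induced mean of 415 ± 50.4 CPM stood beside 305 ± 22.8 CPM in 2iL (0.44 ± 0.26, adjusted p = 0.288). Gbx2, a homeobox gene downstream of LIF, stood at 9.12, 2.83, 12.6 and 4.84 and at 22.7, 20.6, 38.2 and 34.0 CPM (2.02 ± 0.34, adjusted p = 4.32e-05). Re-induced cells were above 2iL for it as well (10.7 ± 4.73 CPM; 1.45 ± 0.31, adjusted p = 0.00134).

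The other 3 calls were weak. Esrrb, an orphan nuclear receptor and target of the GSK3 branch, stood at 96.0, 71.6, 108 and 122 CPM at 24 h and at 191, 152, 153 and 157 CPM in re-induced cells (0.71 ± 0.25, adjusted p = 0.0405). Its groups did not overlap, but the call was lost when a library was left out, either that of experiment 1 or 2 at 24 h or any 1 of the re-induced ones (adjusted p 0.0568 to 0.165), without the block (adjusted p = 0.0705) and with DESeq2 (0.212). Dppa3, a maternal-effect gene also known as Stella, stood at 13.98, 7.54, 27.7 and 8.29 and at 51.1, 66.0, 26.6 and 29.8 CPM (1.53 ± 0.47, adjusted p = 0.0183), and experiment 3 was level in both groups. Without the 24 h library of experiment 3 its difference was 2.27, and it did not pass with any of the other 24 h libraries left out, or with the re-induced one of experiment 2 left out (adjusted p 0.0546 to 0.112), or with DESeq2 (0.167). Prdm14, a repressor of FGF signalling, had at most 1.41 CPM at 24 h and 3.26 to 8.41 CPM in re-induced cells (2.79 ± 0.89, adjusted p = 0.0242). That call was lost with a library left out of experiment 1 or 4 at 24 h, or of experiment 2 or 3 in re-induced cells (adjusted p 0.0517 to 0.101), and with DESeq2 (0.0717), and its difference was 3.46 without the 24 h library of experiment 2.

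Klf4, Klf5, Tbx3, Nr5a2, Tdh, Zfp42, Fgf4, Fbxo15 and Dppa5a did not pass. Klf4 stood at 119.7, 157, 127 and 141 CPM at 24 h and at 138, 172, 138 and 207 CPM in re-induced cells, and the groups overlapped (0.25 ± 0.22, adjusted p = 0.461). Against 2iL, where Klf4 had 379.7 ± 43.4 CPM, both groups were lower, with differences of -1.48 ± 0.22 at 24 h and -1.23 ± 0.21 in re-induced cells. Tbx3, a T-box factor of the network, stood at 45.6, 43.4, 54.8 and 45.6 and at 46.0, 72.3, 49.9 and 59.6 CPM (0.27 ± 0.25, adjusted p = 0.51). Its mean in 2iL was 162 ± 25.4 CPM, and re-induced cells were lower than that (-1.50 ± 0.24, adjusted p = 3.17e-05), as were 24 h cells (-1.76 ± 0.25, adjusted p = 2.03e-06). Klf5 overlapped as well (466, 494, 535 and 511 against 414, 432, 533 and 573 CPM; -0.04 ± 0.24, adjusted p = 0.943). Tdh, the threonine dehydrogenase of mouse embryonic stem cells, did not overlap (251, 206, 326 and 285 against 357, 391, 494 and 500.4 CPM; 0.70 ± 0.31, adjusted p = 0.117), and it passed when the fit held the 8 libraries of the comparison alone or had no filter on low counts, as did Zfp42 (-0.48 ± 0.25, adjusted p = 0.198). In the plot of the naive genes by experiment these genes form the middle block.

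**Figure D4:**
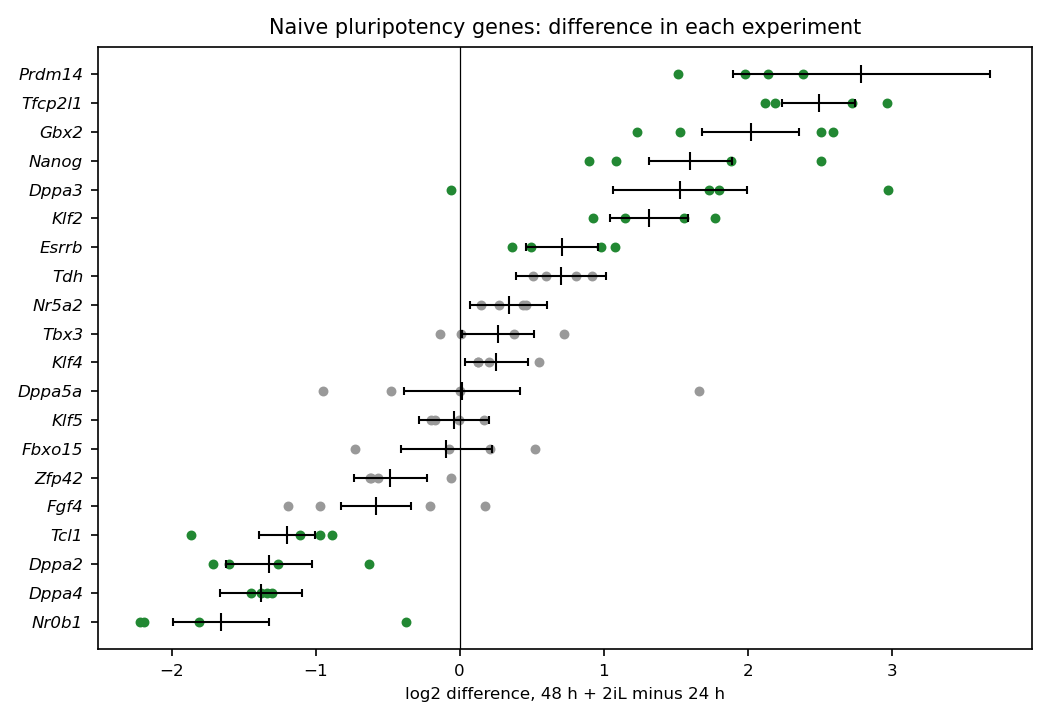
Log2 difference, 48 h + 2iL minus 24 h, of the 20 naive pluripotency genes in each of the 4 experiments (points), with the fitted log2 fold change and its standard error (black); green points belong to genes that passed the test. Tfcp2l1, Gbx2, Nanog and Klf2 are to the right of 0 in all 4 experiments, and Tcl1, Dppa2, Dppa4 and Nr0b1 to the left in all 4.

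Tcl1, Nr0b1, Dppa2 and Dppa4 were lower in re-induced than in 24 h cells. Tcl1, a coactivator of AKT, stood at 69.3, 115, 81.3 and 99.5 CPM at 24 h and at 34.9, 52.6, 21.6 and 53.5 CPM in re-induced cells, with no overlap (-1.20 ± 0.19, adjusted p = 2.52e-05). Its mean in 2iL was 176 ± 6.87 CPM, above both, and the difference of re-induced cells from it was -2.16 ± 0.19. Nr0b1 (also Dax1), an orphan nuclear receptor, stood at 88.1, 36.8, 77.5 and 64.3 and at 18.2, 28.2, 16.2 and 17.7 CPM (-1.66 ± 0.34, adjusted p = 0.000474), beside 18.8 ± 6.32 CPM in 2iL. Dppa4, a chromatin protein that works with its neighbour Dppa2, stood at 481, 532, 452 and 525 and at 195, 204, 165 and 208 CPM (-1.38 ± 0.28, adjusted p = 0.000587), beside 165 ± 26.2 in 2iL and 602 CPM at 48 h. For Nr0b1, Dppa2 and Dppa4 the 24 h level was above that of 2iL and the re-induced level did not differ from 2iL by the test (adjusted p = 0.788, 0.574 and 0.679), whereas Tcl1 was lower than 2iL in both groups.

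Formative and primed epiblast genes were mostly lower in re-induced cells. Of 20 listed and measured, 11 were lower, 2 were higher and 7 did not pass, with a median difference of -1.25. Pou3f1 (also Oct6), a POU factor, stood at 88.1, 45.7, 101 and 87.8 CPM at 24 h and at 14.2, 7.99, 5.82 and 5.12 CPM in re-induced cells (-3.28 ± 0.50, adjusted p = 1.08e-05). Its 48 h mean, the level from which re-induced cells set out, was 435 ± 69.8 CPM. Tcf15, a bHLH factor that primes cells for epiblast fates, stood at 35.9, 56.1, 76.9 and 119 and at 10.6, 12.2, 9.14 and 14.9 CPM (-2.57 ± 0.30, adjusted p = 1.43e-07). Both factors had no overlap and a re-induced mean near that of 2iL (5.82 and 13.8 CPM). Zic2 (-1.47 ± 0.25), Zic5 (-1.30 ± 0.30) and Etv1 (-3.05 ± 0.41) were lower as well. The calls of Grhl2 (-1.33 ± 0.43, adjusted p = 0.0238) and Sall2 (-1.19 ± 0.43, adjusted p = 0.0463) were lost without the block (adjusted p = 0.0683 and 0.131). They were also lost without the 24 h library of experiment 4 (adjusted p = 0.135 and 0.319) and without the re-induced library of experiment 4 (0.0503 and 0.192), Grhl2 also without experiment 3 at 24 h or experiment 1 or 2 in re-induced cells, and Sall2 also without the re-induced one of experiment 3 (0.121), with library totals (0.06) and with the 8 libraries alone (0.11).

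A set of SOX genes did not follow. Sox11, a factor of neural and epiblast progenitors, stood at 157, 145, 175 and 128 CPM at 24 h and at 118, 87.1, 302 and 194 CPM in re-induced cells, with overlap and the highest value in experiment 3 (0.09 ± 0.25, adjusted p = 0.849). Sox4 stood at 82.7, 70.2, 94.5 and 94.7 and at 76.8, 75.3, 153 and 112 CPM (0.25 ± 0.16, adjusted p = 0.28). Sox3, a partner of POU factors in early neural cells, stood at 13.98, 11.8, 18.3 and 14.5 and at 14.7, 8.41, 19.1 and 17.7 CPM (0.02 ± 0.26, adjusted p = 0.981). All 3 were higher than 2iL in both groups: Sox11 by 2.31 ± 0.29 at 24 h and 2.41 ± 0.28 in re-induced cells, Sox4 by 1.64 ± 0.18 and 1.89 ± 0.17, and Sox3 by 2.69 ± 0.36 and 2.71 ± 0.35. Lin28b, an inhibitor of let-7 processing, was higher in re-induced than in 24 h cells (3.65, 4.24, 8.82 and 6.22 against 10.1, 8.41, 18.7 and 17.2 CPM; 1.23 ± 0.30, adjusted p = 0.0029), although its lowest re-induced value was below the highest 24 h value. Fgf5, a marker of the primed epiblast, had few counts in both groups (1.44 ± 1.30 and 1.14 ± 0.314 CPM) and 24.6 CPM at 48 h.

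The DNA methylation genes were lower too: 6 of 9 measured (of 10 listed) and none higher, with a median of -0.70. Dnmt3l, the cofactor of the de novo methyltransferases, stood at 451, 441, 343 and 373 CPM at 24 h and at 70.3, 73.2, 42.0 and 47.9 CPM in re-induced cells (-2.84 ± 0.24, adjusted p = 5.51e-10). Dnmt3b stood at 569, 514, 579.6 and 520.4 and at 193, 157, 231 and 219 CPM (-1.44 ± 0.29, adjusted p = 0.000456), and Dnmt3a at 115, 136, 178 and 159.7 and at 84.4, 73.2, 110.1 and 94.0 CPM (-0.70 ± 0.20, adjusted p = 0.0124). None of the 3 overlapped. The call of Dnmt3a was lost without the 24 h library of experiment 3 (adjusted p = 0.088) or the re-induced library of experiment 2 (0.0551). Both Dnmt3b and Dnmt3a stayed above 2iL in re-induced cells, by 1.12 ± 0.30 and 1.55 ± 0.22. Tet1, a 5-methylcytosine dioxygenase, was lower in re-induced cells (-0.93 ± 0.21, adjusted p = 0.00171), and Dnmt1, the maintenance methyltransferase, did not pass (252 ± 34.3 and 258 ± 16.4 CPM; 0.03 ± 0.10, adjusted p = 0.854).

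Among 12 general pluripotency genes, 8 were lower in re-induced cells and none higher, with a median of -0.58. That count fell to 5 with library totals and to 4 or 5 with 1 library left out, of experiment 1, 3 or 4 at 24 h, or of experiment 2, 3 or 4 in re-induced cells. Utf1, a chromatin-bound factor of pluripotent cells, stood at 409, 420.0, 350.3 and 402 CPM at 24 h and at 74.3, 61.8, 38.6 and 43.8 CPM in re-induced cells (-2.94 ± 0.33, adjusted p = 5.14e-08). L1td1, an RNA-binding protein gene, stood at 942, 1177, 1211 and 1252 and at 426, 394, 196 and 195 CPM (-2.11 ± 0.34, adjusted p = 2.06e-05), and Foxd3, a forkhead repressor, at 26.1, 16.5, 25.2 and 31.1 and at 3.54, 5.47, 2.08 and 3.26 CPM (-2.85 ± 0.49, adjusted p = 5.07e-05). None of these 3 overlapped, and in 2iL their means were 63.4, 411 and 5.75 CPM. Sox2 stood at 416, 547, 587 and 556 and at 552, 619, 597 and 560.0 CPM and did not pass (0.16 ± 0.11, adjusted p = 0.36). Pou5f1, which has close copies and is undercounted by an unknown amount, did not pass either (-0.34 ± 0.29, adjusted p = 0.459).

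WNT and beta-catenin targets were higher in re-induced cells. Of 17 listed, 12 passed the filter on low counts, and of these 9 were higher and none lower, with a median of 3.08. A member could pass that filter through its level in any group of the series. T, Cdx2 and Sp8 had 1, 1 and 2 counts over the 24 h group, so they passed through other groups. That they were higher is no separate support. Of the members under the filter, Rnf43, Dkk1 and Cdx4 had more counts in re-induced cells than at 24 h, and Lgr5 and Apcdd1 fewer. Sp5 (chromosome 2, 70474923 to 70477729), a zinc-finger factor and direct target of beta-catenin, stood at 1.22, 2.83, 0 and 5.53 CPM at 24 h and at 130.4, 148, 229 and 184.3 CPM in re-induced cells (6.14 ± 0.56, adjusted p = 1.23e-09), or 6.83 without the 24 h library of experiment 4. Axin2, the feedback scaffold of the pathway, stood at 5.47, 3.30, 6.93 and 6.91 and at 31.3, 45.8, 86.4 and 67.0 CPM (3.33 ± 0.33, adjusted p = 9.18e-09). For these genes the groups were far apart, and re-induced cells did not differ from 2iL by the test (Sp5 0.59 ± 0.33, adjusted p = 0.272; Axin2 0.18 ± 0.25, adjusted p = 0.709).

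The promoters of T and Sp5 are shown because both genes lie among the 4 largest of the 15 differences upward named above. A further reason is that both promoters hold a TCF/LEF motif, the letters at which TCF factors and beta-catenin bind. They are the 250 bases before the RefSeq start (GRCm38.p6), T at chr17:8434173-8434422 and Sp5 at chr2:70474673-70474922, both on the plus strand, 5′ to 3′, with the match in capitals.
T: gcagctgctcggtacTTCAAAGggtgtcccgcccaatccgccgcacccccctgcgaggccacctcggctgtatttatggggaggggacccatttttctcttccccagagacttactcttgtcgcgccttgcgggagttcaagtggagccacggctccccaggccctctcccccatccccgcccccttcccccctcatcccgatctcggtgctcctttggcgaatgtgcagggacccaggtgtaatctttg
Sp5: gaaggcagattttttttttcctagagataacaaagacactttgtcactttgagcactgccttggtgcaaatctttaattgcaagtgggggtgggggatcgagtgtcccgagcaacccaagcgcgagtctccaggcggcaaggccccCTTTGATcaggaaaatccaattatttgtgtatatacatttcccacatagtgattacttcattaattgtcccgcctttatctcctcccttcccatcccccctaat
The letters searched were CTTTGAT and CTTTGAA on either strand. The match begins 235 bases before the start of T, on the minus strand, and 104 bases before that of Sp5. Of the 9 higher WNT targets 8 had an entry, with 14 promoters between them, and 3 of these 14 held a match (T, Sp5 and 1 promoter of Sp8), beside 7.48% of all 32851 promoters. For STAT, TTCNNNGAA was found in none of the 5 promoters of the 4 higher LIF and STAT3 targets, beside 7.02% of all. A match is no evidence of binding, and other distances were not searched.

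The other called targets differed less or had few counts. Lef1, a TCF-family factor, stood at 40.7, 52.3, 60.5 and 70.5 CPM at 24 h and at 76.3, 77.4, 185 and 139.6 CPM in re-induced cells (1.06 ± 0.19, adjusted p = 0.000122), with 56.8 ± 23.2 CPM in 2iL and 149 ± 10.6 CPM at 48 h. Nkd1, a feedback inhibitor, stood at 2.43, 1.89, 0 and 1.38 and at 8.59, 7.15, 20.4 and 9.31 CPM (2.83 ± 0.50, adjusted p = 9.03e-05), or 2.21 without the 24 h library of experiment 3, and was above 2iL (2.31 ± 0.43, adjusted p = 0.00026). Sp8 had 42 counts against 2, a ratio of 16.03 (95% interval 4.17 to 136.7). Tcf7, also of the TCF family, was higher with a mean of 20.1 ± 4.99 against 6.82 ± 3.43 CPM (1.60 ± 0.33, adjusted p = 0.000522). The experiment 3 library was the highest of the re-induced libraries for T, Sp5, Cdx2, Cdx1, Axin2, Lef1, Tcf7, Nkd1 and Sp8, that is, in all 9 called targets. Notum, Znrf3 and Ccnd1 did not pass; Ccnd1 stood at 377 ± 76.5 and 324 ± 62.1 CPM (-0.22 ± 0.13, adjusted p = 0.252).

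Genes of the mesendoderm and primitive streak overlap with the WNT list. Of 20 listed, 11 passed the filter, and 10 of these were higher in re-induced cells and none lower. A filter of 10 CPM in 4 libraries left 6 of them and a fit of the 8 libraries alone left 4, and all of those left were higher. The whole list summed to at most 11.3 CPM in a 24 h library. Members thus passed these filters through other groups, in the fit of the 8 libraries mainly the re-induced one. That all of those left were higher is therefore no separate support. The median of 11 was 5.36, or 4.62 with genes at 0 counts set to their lower bound. Cdx2, a caudal homeobox gene, had 343 counts in re-induced cells (11.1, 24.0, 68.2 and 46.5 CPM) against 1 count at 24 h (ratio 262, 95% interval 46.7 to 10370). Wnt3, the ligand that starts the streak, stood at 16.2, 22.7, 14.1 and 14.4 CPM and had 0 counts at 24 h, so it was at least 38.4-fold higher, the bound being taken at 3 counts over the 24 h group. Both exceeded 2iL (Cdx2 1.41 ± 0.43, adjusted p = 0.0236; Wnt3 2.19 ± 0.51, adjusted p = 0.00325).

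The streak genes of lower level varied more between experiments. Hoxb1 stood at 4.04, 4.21, 12.5 and 19.1 CPM in re-induced cells, 89 counts against 1 (ratio 67.9, 95% interval 11.9 to 2713). Foxa2, a node and endoderm factor, stood at 1.52, 1.26, 9.56 and 6.05 CPM and was at least 10.7-fold higher, or 6.62-fold without the re-induced library of experiment 3. Fgf8, a ligand of the streak, stood at 1.01, 1.68, 7.07 and 0.466 CPM and was at least 6.11-fold higher, or 2.44-fold without the re-induced library of experiment 3. Tlx2 stood at 0, 0.42, 5.82 and 1.40 CPM, overlapping with the 0 of all 24 h libraries, and its call was lost without the re-induced library of experiment 3 (adjusted p = 0.206), without any 1 of the 24 h libraries (0.0528 to 0.0798) and with DESeq2 (0.194). Eomes, a T-box gene of the anterior streak, did not pass (3.04, 0.943, 6.30 and 0.691 against 5.56, 4.63, 0.416 and 0.466 CPM; -0.02 ± 0.72, adjusted p = 0.99). The summed level of the list was 145.1 to 304 CPM in the re-induced libraries and 4.24 to 11.3 CPM at 24 h.

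Of the NODAL pathway, 5 of 14 measured members (of 17 listed) were higher and 1 lower. The higher ones were antagonists, feedback genes and convertases. Lefty1 (chromosome 1, 180935022 to 180938400), a secreted antagonist of NODAL, stood at 1.82, 2.83, 3.15 and 4.15 CPM at 24 h and at 111, 78.6, 115 and 53.1 CPM in re-induced cells (5.01 ± 0.59, adjusted p = 1.45e-07). Lefty2, its paralogue, stood at 7.90, 5.66, 12.6 and 8.29 and at 133, 154, 78.1 and 51.2 CPM (3.60 ± 0.54, adjusted p = 7.16e-06), and Smad7, an inhibitory SMAD, at 7.29, 3.77, 8.19 and 7.60 and at 28.3, 25.2, 43.2 and 32.1 CPM (2.33 ± 0.42, adjusted p = 0.000123). None of the 3 overlapped. Lefty1 was above 2iL (2.07 ± 0.44, adjusted p = 0.00107), while Lefty2 and Smad7 did not differ from it by the test. Pcsk6 (1.18 ± 0.27, adjusted p = 0.00172) and Furin (0.99 ± 0.22, adjusted p = 0.00172), proprotein convertases that process NODAL, were higher. The ligand Nodal did not pass (21.9, 16.5, 22.7 and 26.3 against 21.7, 16.4, 9.97 and 11.2 CPM; -0.60 ± 0.40, adjusted p = 0.333). Tdgf1, the coreceptor also called Cripto, had a difference of -0.92 ± 0.31, adjusted p = 0.0315, with overlap: experiments 1 and 2 stood at 99.6 and 99.7 CPM in re-induced cells and experiments 3 and 4 at 41.1 and 29.3. Its call, the single lower one of the list, was lost without the block (adjusted p = 0.112), with DESeq2 (0.112), with library totals (0.0507), and without either library of experiment 3 or 4 (0.0975 to 0.182). The lower count of the list was 2 with no filter on low counts (of 17) and with the 8 libraries alone (of 12).

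Genes of the LIF and STAT3 branch were divided. Of 15 measured (of 17 listed), 4 were higher, among them Tfcp2l1 and Gbx2, and 4 were lower, with a median of -0.04. Pim1, a kinase gene induced by STAT3, stood at 41.3, 35.8, 34.7 and 35.9 CPM at 24 h and at 52.1, 85.4, 56.9 and 66.1 CPM in re-induced cells (0.81 ± 0.22, adjusted p = 0.00785), and its call was lost without the re-induced library of experiment 2 (adjusted p = 0.0509). Bcl3, an atypical inhibitor of NF-kappa-B, stood at 26.7, 36.8, 32.8 and 44.9 and at 59.1, 84.9, 53.2 and 74.5 CPM (0.94 ± 0.25, adjusted p = 0.00717). Socs3, the feedback inhibitor and a standard readout of STAT3, did not pass (35.2, 10.8, 29.6 and 26.95 against 21.2, 18.1, 26.2 and 29.3 CPM; -0.05 ± 0.30, adjusted p = 0.945), and neither did Stat3 (0.08 ± 0.18). Lifr, the LIF receptor gene, was lower in re-induced cells (49.8, 74.0, 66.2 and 93.3 against 36.4, 42.9, 40.3 and 47.0 CPM; -0.76 ± 0.21, adjusted p = 0.00909), a call lost without the 24 h library of experiment 4 (adjusted p = 0.0727). Pim3 was lower as well (-0.76 ± 0.19, adjusted p = 0.00432), with overlap.

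Targets and feedback genes of MEK and ERK were lower in 7 of 16 measured (of 20 listed) and higher in none, with a median of -0.60. Etv4, an ETS factor of the PEA3 family, stood at 93.6, 139, 76.2 and 129 CPM at 24 h and at 10.6, 16.8, 6.65 and 25.6 CPM in re-induced cells (-2.88 ± 0.31, adjusted p = 2.84e-08), below its 2iL mean of 51.7 ± 18.7 CPM (-1.77 ± 0.31, adjusted p = 0.000138). Dusp6, the phosphatase of ERK, stood at 38.3, 33.5, 31.5 and 20.7 and at 6.57, 7.57, 9.14 and 5.59 CPM (-2.11 ± 0.29, adjusted p = 1.61e-06), beside 10.1 ± 2.52 CPM in 2iL. Spry2, a sprouty inhibitor, stood at 88.1, 107, 154 and 114 and at 54.6, 49.6, 79.0 and 71.2 CPM (-0.86 ± 0.18, adjusted p = 0.000658), and Spry4 at 7.29, 12.3, 4.41 and 9.68 and at 2.53, 2.52, 0 and 2.33 CPM (-2.23 ± 0.52, adjusted p = 0.0022). In all 4 genes every re-induced library was below every 24 h library. Etv5 of the same ETS family did not pass (214, 194, 231 and 246 against 229, 226, 234 and 275 CPM; 0.12 ± 0.25, adjusted p = 0.793), nor did the immediate early gene Egr1 (4.50 ± 2.23 and 1.91 ± 0.686 CPM; -1.19 ± 0.91, adjusted p = 0.398).

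Ligands of other pathways differed one by one. Bmp4 stood at 45.0, 72.6, 52.9 and 68.4 CPM at 24 h and at 14.2, 12.2, 6.65 and 12.6 CPM in re-induced cells (-2.40 ± 0.28, adjusted p = 1.13e-07), and Bmp7 at 2.43, 1.89, 4.41 and 3.46 and at 12.6, 10.5, 22.4 and 17.7 CPM (2.37 ± 0.45, adjusted p = 0.000192). These 2 ligands of 1 family thus differed in opposite directions, each without overlap. Of the 12 measured genes of the BMP pathway 2 were higher and 1 lower, beside 10.2% and 9.34% of all genes. The count of 2 became 1 without either library of experiment 1 or the 24 h library of experiment 4. Id1, Id2 and Id3, the readouts of BMP signalling, did not pass (-0.18 ± 0.36, -0.91 ± 0.38 and -0.68 ± 0.34), but Id2 did with no filter on low counts (adjusted p = 0.00755) and without the 24 h library of experiment 2 (0.0395), which makes the lower count 2. Fgf4, the autocrine ligand that drives ERK in stem cells, stood at 97.8, 93.3, 121 and 119.6 and at 84.9, 106, 52.4 and 60.5 CPM (-0.58 ± 0.25, adjusted p = 0.0969). It passed without the 24 h library of experiment 2 (-0.76, adjusted p = 0.042), with no filter on low counts (0.0179) and with the 8 libraries alone (0.0246).

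**Figure D5:**
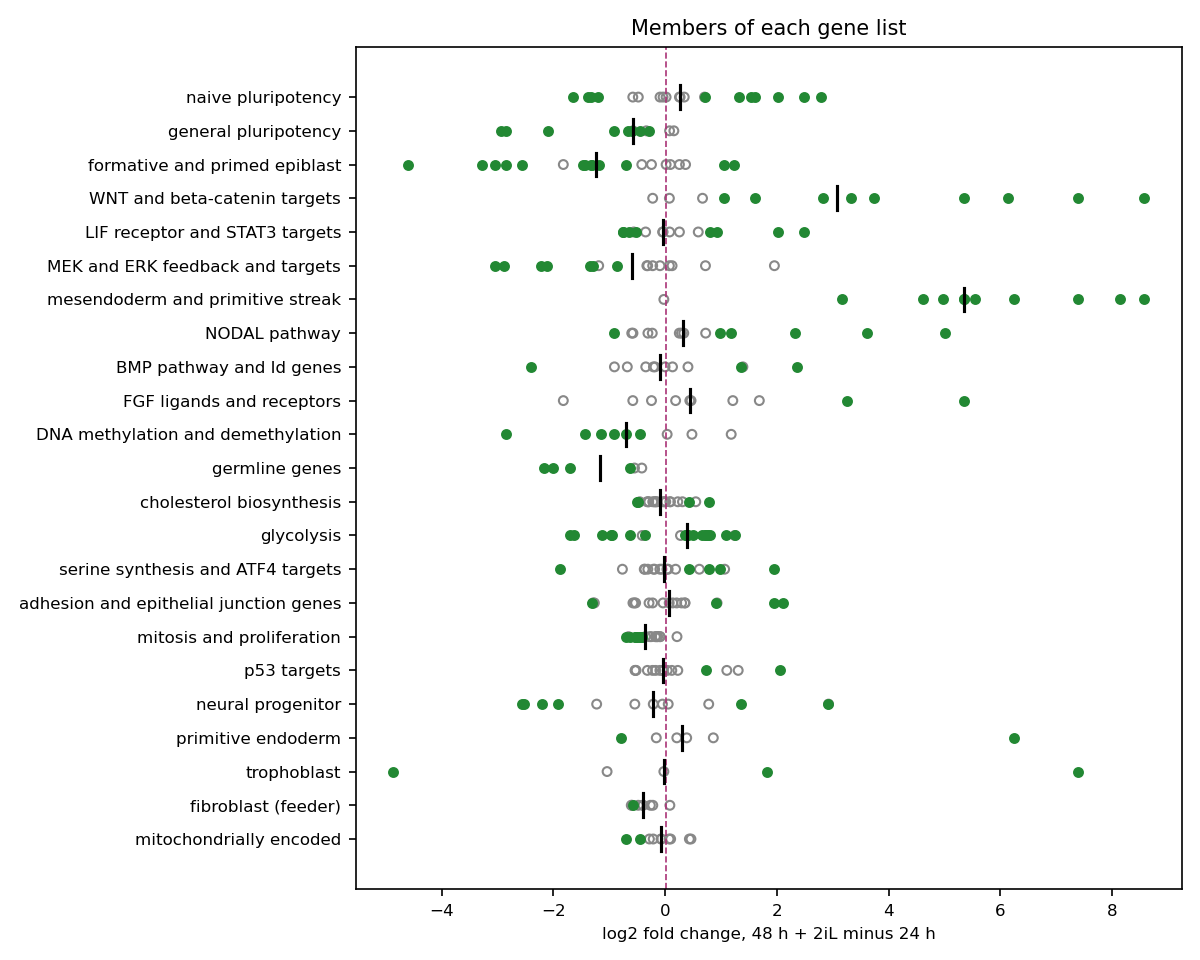
Log2 fold change, 48 h + 2iL minus 24 h, of each measured member of 23 gene lists; filled points passed the test, open points did not, black bars are list medians and the dashed line is the median of all genes. The formative list reaches from -4.60 to 1.23, the mesendoderm and WNT lists extend beyond 8, and the naive list lies on both sides of 0.

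Glycolysis genes split within the pathway: 12 of 23 were higher, 7 lower, with a median of 0.40. Higher were Ldha, the lactate dehydrogenase subunit (204, 224, 166 and 265 against 344, 373, 311 and 380.3 CPM; 0.73 ± 0.14, adjusted p = 0.000323), and the glucose transporter Slc2a3 (85.7, 46.7, 78.1 and 53.9 against 115, 143, 149 and 156 CPM; 1.09 ± 0.24, adjusted p = 0.00113). Lower were the transporters Slc2a1 (-0.62 ± 0.15) and Slc16a3, which exports lactate (89.3, 102, 113 and 125 against 39.9, 52.1, 47.4 and 55.9 CPM; -1.14 ± 0.22, adjusted p = 0.000349). The phosphofructokinase isoforms went apart, with Pfkp at 115, 145, 153 and 107 and 55.1, 50.9, 22.4 and 45.6 CPM (-1.64 ± 0.22, adjusted p = 1.44e-06) and Pfkl at 38.3, 76.4, 40.3 and 71.2 and 102, 68.1, 91.0 and 126 CPM (0.76 ± 0.18, adjusted p = 0.00316). Pfkp did not overlap and Pfkl did.

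Mitosis genes were lower by small amounts in 8 of 19, higher in none, with a median of -0.35. Top2a, the topoisomerase of dividing cells, stood at 1489, 1915, 1587 and 1850.2 CPM at 24 h and at 1160.1, 1194, 1187 and 1219 CPM in re-induced cells (-0.52 ± 0.08, adjusted p = 8.87e-06), and Aurka, a spindle kinase, at 113, 106, 119 and 109 and at 59.6, 71.9, 68.2 and 74.0 CPM (-0.71 ± 0.13, adjusted p = 0.000235). Neither overlapped. Mki67 (-0.14 ± 0.12, adjusted p = 0.473) and Cdk1 (-0.09 ± 0.15, adjusted p = 0.727) did not pass. Cdkn1a, which encodes the cell cycle inhibitor p21, stood at 246, 259, 221 and 267 CPM at 24 h and at 888, 873, 1314 and 1000.3 CPM in re-induced cells (2.05 ± 0.18, adjusted p = 1.08e-09), beside 808 ± 163 CPM in 2iL. It is 1 of 2 p53 targets of 16 measured that were higher, and Mdm2 did not pass (0.04 ± 0.17, adjusted p = 0.913). The count of 2 is near the 10.2% of all genes called higher, and the list median was -0.04. That count was 1 without the 24 h library of experiment 3 or the re-induced one of experiment 4, and 4 without the 24 h library of experiment 4.

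Of 18 measured genes of serine synthesis and of the ATF4 response 4 were higher and 1 lower, a count of 4 that became 2 without the re-induced library of experiment 2 or 4. The lower count became 2 with RLE factors, with no filter, with the filter of 10 CPM, with the 8 libraries alone and without either library of experiment 2. Ddit4, an inhibitor of mTORC1, stood at 77.8, 49.0, 73.7 and 57.4 CPM at 24 h and at 172, 169, 379 and 291 CPM in re-induced cells (1.95 ± 0.28, adjusted p = 4.71e-06), above 2iL (2.11 ± 0.28, adjusted p = 1.81e-06). Asns, the asparagine synthetase gene, stood at 155, 180.1, 117 and 106 and at 232, 326, 250.2 and 277 CPM (0.97 ± 0.16, adjusted p = 4.38e-05), and Cth, a gene of cysteine synthesis, at 30.4, 11.3, 25.8 and 19.4 and at 6.57, 7.15, 5.40 and 4.19 CPM (-1.88 ± 0.34, adjusted p = 0.000112). No libraries overlapped in these 3 genes, and Atf4 itself did not pass (-0.06 ± 0.12, adjusted p = 0.783). Cholesterol biosynthesis had 2 higher and 2 lower of 22, near the 10.2% and 9.34% of all genes. Both counts became 1 without the re-induced library of experiment 1. The higher count was also 1 without the 24 h library of experiment 3 or 4. The lower count was 1 without the block, with library totals, and without the 24 h library of experiment 2 or the re-induced one of experiment 2 or 4, and 4 with DESeq2, RLE factors or the filter of 10 CPM.

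Some genes of re-induced cells were outside the range between 24 h and 2iL. Of the 11080 genes tested, 334 were above both by both tests, and 292 were below both. Both tests use the same 4 re-induced libraries, so a deviating re-induced library moves a gene in both at once. Among the 8 farthest above were Foxb1, Fam171a1, Hs6st2, Greb1, Frem2, Pllp and Map2. Hs6st2, a heparan sulfate sulfotransferase gene, stood at 1.82, 0.943, 2.52 and 1.38 CPM at 24 h and at 16.7, 10.5, 19.5 and 18.6 CPM in re-induced cells, with 1.85 ± 0.873 CPM in 2iL (3.26 ± 0.39, adjusted p = 2.02e-07; against 2iL 3.13 ± 0.36, adjusted p = 1.58e-07). Its re-induced libraries were all above those of 24 h and of 2iL. Hs6st2 was named for its distance from both groups, so this is no separate support. The 8 farthest below were Pramel6, Vax2, Was, Tuba3a, Ly6a, Pkd2l1, Catip and Ascl2, of which Pramel6, Tuba3a and Ly6a have close copies, so that their counts are uncertain. The call of Pramel6 was lost with DESeq2 (adjusted p = 0.271), and its difference ran from -6.49 without the re-induced library of experiment 1 to -3.04 without that of experiment 2. Was, the Wiskott-Aldrich syndrome protein gene of actin assembly, stood at 17.6, 13.7, 11.3 and 5.53 CPM at 24 h, at 3.03, 2.10, 0 and 0.466 CPM in re-induced cells and at 9.50 ± 3.47 CPM in 2iL (-3.16 ± 0.54, adjusted p = 4.87e-05; against 2iL -2.83 ± 0.54, adjusted p = 0.000314).

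Germline genes that DNA methylation keeps silent were lower in 4 of 6 measured (of 15 listed). Members under the filter on low counts went both ways. Ddx4 had 18 counts at 24 h and 41 in re-induced cells, and Brdt 2 and 15. Sycp1 had 10 and 6, and Hormad1 11 and 9. The list summed to 393 to 573 CPM at 24 h, 225 to 332 CPM in re-induced cells and 234 to 313 CPM in 2iL. Unlike this sum, the member shown next was higher in 2iL than at 24 h. Dazl, an RNA-binding protein gene of germ cells, stood at 17.6, 9.90, 17.6 and 15.9 CPM at 24 h, at 4.55, 0.841, 4.16 and 4.19 CPM in re-induced cells and at 41.1 ± 18.5 CPM in 2iL (-2.17 ± 0.43, adjusted p = 0.000329). The count of 4 became 2 without the block, without the re-induced library of experiment 1 and without the 24 h library of experiment 3. Among adhesion genes 3 of 19 measured were higher and 1 lower, near the share of all genes called (19.6%). The count of 3 became 1 without the block, without the 24 h library of experiment 2 or the re-induced one of experiment 3, and 5 of 22 with no filter on low counts. Cdh2, or N-cadherin, stood at 3.04, 1.41, 5.04 and 2.76 and at 14.7, 7.57, 13.7 and 9.78 CPM (1.94 ± 0.39, adjusted p = 0.000459). Itga6, an integrin subunit, stood at 148, 221, 162 and 191 and at 81.9, 65.2, 81.9 and 59.1 CPM (-1.31 ± 0.15, adjusted p = 5.62e-08). Cdh1, or E-cadherin, did not overlap but did not pass (638, 746, 747 and 613 against 820.4, 928, 932 and 818 CPM; 0.36 ± 0.37, adjusted p = 0.554). It passed when the fit held the 8 libraries alone (adjusted p = 0.00503) or had no filter on low counts (0.0016).

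Markers of other cell types were called in 12 of 33 measured (36.4%) over 4 lists, neural progenitor, primitive endoderm, trophoblast and fibroblast, beside 19.6% of all genes. Of 13 measured neural progenitor genes 2 were higher and 4 lower, the 4 becoming 2 without the re-induced library of experiment 3 and the 2 becoming 1 without the block. Sox21 stood at 24.3, 23.1, 32.8 and 20.04 CPM at 24 h and at 5.05, 3.36, 4.57 and 6.05 CPM in re-induced cells (-2.52 ± 0.52, adjusted p = 0.000615), and Nkx6-2 at 6.68, 12.7, 1.89 and 2.07 and at 44.5, 47.9, 53.6 and 36.3 CPM (2.91 ± 0.36, adjusted p = 3.59e-07), or 3.57 without the 24 h library of experiment 2. Nkx6-2 had 143 ± 27.4 CPM in 2iL. The summed level of the list, which includes the Nkx6-2 values above, was 85.2 to 124 CPM in re-induced cells and 72.6 to 89.1 CPM at 24 h. It was highest in 2iL, at 153 to 233 CPM, among these groups. Fibroblast markers, which feeder cells would bring, summed to 197 to 318 and 216 to 425 CPM. Of 9 measured 1 was lower, near the 9.34% of all genes. That call was lost without the block, with library totals, and with 1 library left out (24 h in experiments 2, 3 and 4, re-induced in experiments 3 and 4). Of the primitive endoderm list 1 of 6 was higher (Foxa2) and 1 lower (Sparc, -0.79 ± 0.15, adjusted p = 0.000149), and its defining markers Gata4, Gata6 and Sox17 had 3, 7 and 2 counts over the 4 re-induced libraries and 3, 2 and 1 at 24 h. Of 5 measured trophoblast genes Cdx2 and Tfap2c (1.82 ± 0.41, adjusted p = 0.00149) were higher and Ascl2 lower, the lower count becoming 2 without either library of experiment 3. The part of such cells in these results was not tested, and in bulk samples a change in the share of cells cannot be told apart from a change in RNA per cell.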

How the data were processed

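RNA was profiled by 3′ digital gene expression sequencing, which reads transcript ends. Per the submitters' processing notes the authors' tools were STAR 2.6.0a, bcl2fastq and HTSeq and their build mm10; filters and the use of molecular identifiers are not given in the sources used here. The deposited files hold raw counts for 31053 genes per library, and the deposited CPM table was used for a check alone: all 28 of its columns matched CPM made from the counts, within 1e-06. No pair of libraries was identical, and the 12 replicate pairs of the 2 groups differed by more than sampling noise (chi-square per gene 3.16 to 7.80). Depth is given in the report, and intervals and bounds cover counting error only.

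The filter was filterByExpr on groups, with 10 counts and a total of 15, and left 11080 genes. A quasi-likelihood model of group means and experiment blocks was fitted to all 28 libraries (edgeR 4.0.16, R 4.3.3, TMM). The standard error is the absolute difference divided by the square root of F. Simulated data of this comparison (10903 genes) gave calls for 97% of genes changed by 2 on the log2 scale and for 40% of those changed by 1. The simulation changed few genes, all at 10 CPM or more at 24 h, and held no experiment effect, so these shares need not hold for the data. The experiment number in the titles is read as a shared experiment. Same-numbered libraries of both groups had weakly correlated deviations from the group mean (0.068 to 0.092 over 4 pairs, against -0.102 to 0.061 otherwise). The deviations of a group sum to 0, so both ranges depend on each other, and the pairing was not tested.

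The genes and the 24 lists (372 genes) were chosen with earlier results of these data known. Named were the 15 largest called rises and falls (mean of at least 10 CPM, no overlap), the 8 genes farthest above (1 is not reported here) and the 8 farthest below both 2iL and 24 h, list members and the markers. Pooled counts of 1 to 3 in a group were compared by a conditional exact Poisson interval. Alternatives were no block, the 8 libraries alone, DESeq2 1.42.0, library totals, RLE factors, no filter, a filter of 10 CPM in 4 libraries, and leaving out each of 8 libraries. Positions are from GENCODE M21 (GRCm38) and promoters from RefSeq (GRCm38.p6).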

Additional observations from a re-analysis of the deposited data

Results flagged for a closer look

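For 142 genes named in the report (Gm42418 was not searched), each group of 4 libraries was searched for a library whose gap to the nearest other was large against the group's range, by Dixon's 95% critical value for 4 libraries. Of 284 groups 23 held one, and for normally distributed values chance flags about 1 in 20 groups. A group with 0 counts in all libraries but 1 is always flagged. This holds for Ascl2 and Pramel6 in re-induced cells and for the last genes listed at 24 h, so the 23 cannot be set against that rate. All values are CPM.

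In re-induced cells, experiment 3 stood apart for 5 genes. It was high for Nkd1 (20.4, others 7.15 to 9.31), Notum (14.1, others 4.63 to 5.06), Nr5a2 (202, others 135.0 to 143) and Mdm2 (156, others 117 to 122), and 0 for Spry4, where the others were 2.33 to 2.53. Nkd1 and Notum are both feedback inhibitors of WNT signalling. Experiment 4 was high for Etv5 (275) and low for Id1 (4.19, others 10.6 to 11.6). Experiment 2 was high for Nr0b1 (28.2, others 16.2 to 18.2) and low for Dazl (0.841, others 4.16 to 4.55) and Cdk1 (96.3). Experiment 1 was high for Esrrb (191, others 152 to 157), and it was the single re-induced library with counts for Ascl2 and Pramel6 (1.52 in each).

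At 24 h, experiment 4 was high for Tgm3 (39.4, others 17.02 to 19.3) and Cdk5r2 (35.9, others 14.6 to 17.02), and experiment 2 was low for Znrf3 (1.41, others 6.08 to 6.91). In 7 further genes 1 library at 24 h had from 1 to 3 counts and the others 0: T (0.471), Srgap1 and Plcl2 (0.943 in each) in experiment 2, Hoxb1 and Pdlim4 (0.63 in each) in experiment 3, and Cdx2 (0.691) and Greb1 (2.07) in experiment 4.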

How the results depend on the processing

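None of the 109 named genes that were called changed sign under any alternative, whereas 15 of the 33 named genes that were not called did, among them Eomes, Klf5, Socs3 and Atf4. The count of 2170 genes was 1838 without the experiment block (954 higher, 884 lower), 2159 with DESeq2 (1065 higher, 1094 lower), 2230 with library totals, 2169 with RLE factors, 2196 without a filter, 2038 with the filter of 10 CPM and 1847 with the 8 libraries alone, and 1718 to 1972 when 1 library was left out. Of the 2170 genes, 1831 were among those called without the block, which is the fit that ignores the pairing, and in every setting none of them was called with the other sign. The block decided the calls that the report names as lost without it, and no direction of a called gene. The count of genes higher in re-induced cells than in 2iL, 860, ranged from 571 to 790 when 1 library was left out. The lowest value was without the re-induced library of experiment 3, and the cause was not tested. Self-test calls at a log2 difference of 1 reached 40%, so differences of this size or less may go uncalled. The self-test changed few genes, all at 10 CPM or more at 24 h, and held no experiment effect, so the share for the real data may differ. Genes of few counts have wide intervals.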
